A study of Mus musculus with 22 samples.

Results

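Ecel1, Sprr1a, Gap43, Sox11 and Gal are 5 genes that neurons switch on when their axons are cut or crushed. They were taken by name from the 54532 genes of each of the deposited count tables of the mouse retina and choroid after laser injury. They were chosen on the measured differences between lasered and control wild-type tissue, so those differences are given below as a description without a test. The 5 genes were described in every library, over control, day 3, day 7 and day 14 after the laser, and separately in lasered mice of the Rag2 strains.

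The series measured the RNA of the retina and choroid, dissected together, by bulk sequencing in a laser model of choroidal neovascularisation (CNV), in which vessels of the choroid grow through the burned barrier into the retina. Adult wild-type C57BL/6J mice gave 4 control libraries whose titles say without CNV, age-matched per the series text, and 12 libraries after laser photocoagulation, 4 from each of day 3, day 7 and day 14. A second table held 3 libraries of Rag2-/- mice, which lack T and B cells, and 3 of Rag2-/-γc-/- mice, which also lack the common gamma chain that natural killer cells need. All 6 came from day 3 after the laser, and no library of an unlasered Rag2 mouse was analysed here. Control replicate 4 has a treatment tag that says laser although its title says no CNV; it was kept as a control. The labels do not say whether each library is a separate animal or eye or a pool, so p-values measure the spread between these libraries, which may be technical.

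An axon injury sends signals back to the cell body, where kinases and transcription factors start a programme that remakes the growing axon. In the retina the cells with long axons are the ganglion cells, whose axons form the optic nerve, and this programme is best known there after optic nerve crush. Sox11 is a transcription factor of the developing nervous system, and Gap43 is a membrane protein of growth cones. Sprr1a is an epithelial protein of the cornified envelope that injured sensory neurons also make. Gal encodes the neuropeptide galanin, and Ecel1 encodes a membrane protein of the neprilysin family of peptidases that was found through its rise in damaged neurons.

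The promoters of Sprr1a and Ecel1 are shown because these genes had the largest differences from control, and because only the first held any of the motifs searched among the 4 members with a promoter in RefSeq (build GRCm38.p6; there was no entry for Gap43). Each window runs from 250 bases before the RefSeq start to 50 after it, and lies on the minus strand, at chr3:92485832-92486131 for Sprr1a and chr1:87156307-87156606 for Ecel1. Capitals mark the motif TGANTCA, bound by AP-1 dimers such as those of Jun, and the TATA box letters TATAAA.
Sprr1a: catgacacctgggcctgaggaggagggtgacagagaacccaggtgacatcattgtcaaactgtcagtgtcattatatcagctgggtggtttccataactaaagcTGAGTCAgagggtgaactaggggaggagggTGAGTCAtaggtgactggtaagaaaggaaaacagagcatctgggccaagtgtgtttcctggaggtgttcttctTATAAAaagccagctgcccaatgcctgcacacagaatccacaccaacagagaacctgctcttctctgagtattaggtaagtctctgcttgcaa
Ecel1: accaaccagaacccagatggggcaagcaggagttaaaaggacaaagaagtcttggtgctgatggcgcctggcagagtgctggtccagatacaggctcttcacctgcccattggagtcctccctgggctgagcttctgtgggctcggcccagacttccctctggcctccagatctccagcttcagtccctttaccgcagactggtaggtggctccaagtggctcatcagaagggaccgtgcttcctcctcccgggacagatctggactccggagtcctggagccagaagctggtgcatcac
The Sprr1a window held TGAGTCA at 146 and at 116 bases before the start and TATAAA at 43 bases before it. The third motif searched was TGACGTCA, the cAMP response element, and it lay in none of the 4 windows. On both strands the Ecel1, Sox11 and Gal windows also lacked the first and second motif. Of 32851 promoter windows of the same length, 7.81% held TGANTCA, 0.46% held it at least 2 times, 13.6% held TATAAA and 1.79% held TGACGTCA. A match is a run of letters and not a bound site, and these windows say nothing about elements farther away.

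The wild-type libraries held 15033983 to 16848254 counts and the Rag2 libraries 27227847 to 30315086, and values are given as CPM, the count relative to the scaled total of its library in the usual unit of edgeR. All 5 genes passed the filter on low counts in the wild-type table, where 18657 genes were tested, and 4 of 5 passed in the Rag2 table, where Sprr1a did not and 18923 were tested. All 13 ganglion cell markers, 8 rod markers and 7 pigment epithelium markers were detected in every group. The libraries also held transcripts of tissue that is not retina or choroid. The 14 markers of cornea and conjunctiva summed to 2520 to 7626 CPM in control, 4921 to 33749 at day 3, 5160 to 26505 at day 7 and 5724 to 20300 at day 14, beside 12.4 to 21.4 CPM in the Rag2 libraries. The 13 lens markers reached 140033 CPM in day 14 replicate 1, beside 6.70 to 51321 CPM in the other lasered wild-type libraries. In each lasered group 1 library was highest in the cornea and conjunctiva sum, namely day 3 replicate 3, day 7 replicate 1 and day 14 replicate 1, and member values are also given without these 3 libraries.

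At day 3 all 5 genes had a higher mean than in control, from 97.7 times for Ecel1 to 1.58 times for Gap43. In every lasered library of day 3, Ecel1, Sprr1a and Gal stood above every control, while the ranges of Sox11 and Gap43 overlapped with control through day 3 replicate 3 alone. The share of all genes whose groups stood apart in this way was not counted, here or in the comparisons below. At day 14 the means of Gap43, Sox11 and Gal lay within 1 SD of the control mean, and those of Ecel1 and Sprr1a were still 11.9 and 7.49 times the control mean. Because the tissue was sequenced in bulk, a change in the number of cells and a change in RNA per cell cannot be told apart.

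**Figure D1:**
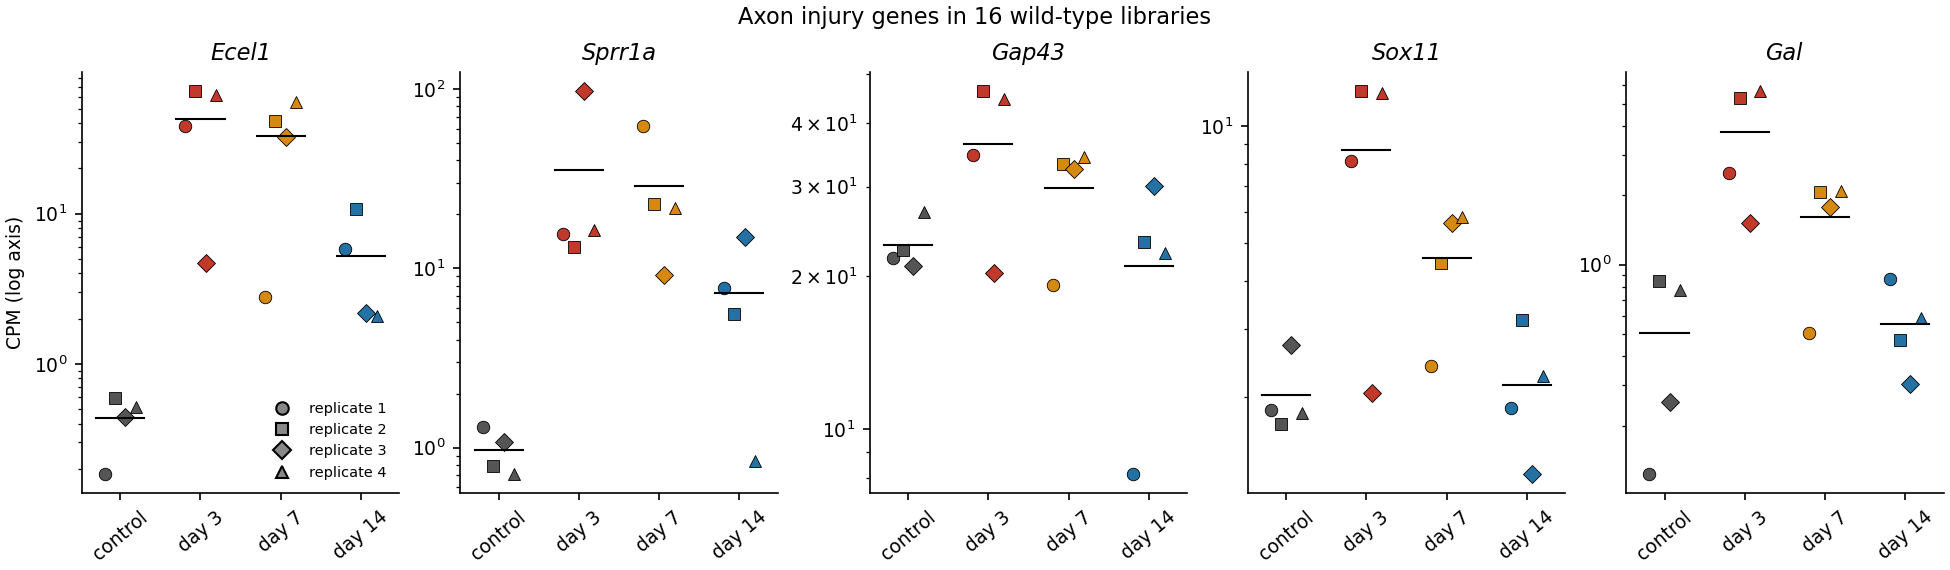
CPM of each gene (log axis, a different range in each panel) in the 16 wild-type libraries, by group; each point is 1 library, its shape gives the replicate number and the line is the group mean. Day 3 replicate 3 (diamond) and day 7 replicate 1 (circle) are the lowest of their groups for Ecel1, Gap43, Sox11 and Gal and the highest for Sprr1a.

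Sox11 (ENSMUSG00000063632, chr12:27334264-27342574 on mm10, minus strand) is the only transcription factor among the 5. In control replicates 1 to 4 it stood at 1.86, 1.71, 2.73 and 1.82 CPM. At day 3 the values were 8.14, 12.3, 2.05 and 12.2 CPM, and at day 7 they were 2.40, 4.45, 5.62 and 5.83 CPM. Replicates 1, 2 and 4 of day 3 were above every control and replicate 3 was among the controls, and at day 7 replicate 1 alone fell below the highest control. At day 14 Sox11 was back at 1.88, 3.17, 1.27 and 2.27 CPM, across the control range. The log2 fold change against control was 2.09 ± 0.46 at day 3, 1.17 ± 0.46 at day 7 and 0.08 ± 0.47 at day 14 (SE, edgeR, n = 4 per group).

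Gap43 (ENSMUSG00000047261, chr16:42248442-42340651, minus strand) binds calmodulin and is a substrate of protein kinase C in growth cones and presynaptic endings. It was the most abundant of the 5 in control, at 21.7, 22.5, 21.0 and 26.8 CPM, and the least spread, with a coefficient of variation of 11.4%. At day 3 it measured 34.6, 46.2, 20.3 and 44.6 CPM, at day 7 19.2, 33.2, 32.4 and 34.3 CPM. In both groups 3 libraries were above every control and 1 was below every control. At day 14 the values were 8.16, 23.3, 30.1 and 22.2 CPM, with the lowest in replicate 1, the library with the lens sum of 140033 CPM. The log2 fold change was 0.66 ± 0.33 at day 3, 0.37 ± 0.33 at day 7 and -0.13 ± 0.33 at day 14 (SE, n = 4 per group). The microRNA gene Mir6540 lies within Gap43 on the same strand.

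Sprr1a (ENSMUSG00000050359, chr3:92483952-92485895, minus strand) bundles with other proteins in the envelope of squamous epithelia and promotes neurite growth when neurons make it. Control libraries held 1.30, 0.787, 1.08 and 0.715 CPM of it. Day 3 libraries held 15.4, 13.1, 96.9 and 16.4 CPM, and day 7 libraries 62.1, 22.8, 9.12 and 21.7 CPM. All 8 were above every control, and replicate 3 of day 3 and replicate 1 of day 7 stood far above the rest of their groups, where the other 4 genes were lowest. At day 14 Sprr1a was at 7.73, 5.57, 14.9 and 0.844 CPM, so that replicate 4 alone had returned to the control range. The log2 fold change was 5.18 ± 0.94 at day 3, 4.88 ± 0.93 at day 7 and 2.89 ± 0.90 at day 14 (SE, n = 4 per group). Without day 3 replicate 3 the day 3 value was 3.93.

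Gal (ENSMUSG00000024907, chr19:3409919-3414472, minus strand) encodes a peptide that acts through receptors coupled to G proteins and that rises in many neurons after axotomy. Its controls measured 0.124, 0.853, 0.254 and 0.780 CPM, which are 2 to 13 counts, so the control level is imprecise. At day 3 they were 2.51, 5.31, 1.52 and 5.65 CPM and at day 7 0.506, 2.06, 1.78 and 2.09 CPM. Every day 3 library was above every control, and at day 7 replicate 1 alone was within the control range. By day 14 the values of 0.866, 0.469, 0.302 and 0.584 CPM lay across that range. The log2 fold change was 2.89 ± 0.59 at day 3, 1.67 ± 0.60 at day 7 and 0.13 ± 0.65 at day 14 (SE, n = 4 per group).

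Ecel1 (ENSMUSG00000026247, chr1:87147655-87156521, minus strand) was almost silent in control tissue, with 3, 9, 7 and 8 counts or 0.186, 0.590, 0.445 and 0.520 CPM. At day 3 it had 631, 1080, 71 and 1034 counts, which are 38.6, 65.2, 4.70 and 61.5 CPM. At day 7 it stood at 2.78, 41.6, 32.3 and 55.7 CPM, and at day 14 at 5.78, 10.7, 2.17 and 2.08 CPM. All 12 lasered libraries were above all 4 controls. Day 3 replicate 3 and day 7 replicate 1 had about the level of the day 14 libraries. The log2 fold change was 6.59 ± 1.06 at day 3, 6.23 ± 1.05 at day 7 and 3.56 ± 1.02 at day 14 (SE, n = 4 per group), the largest of the 5 genes on each day. With 1 library left out at a time the day 14 value ran from 2.92 to 3.82. That of Sprr1a ran from 2.26 to 3.26, so these ranges overlapped.

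The authors' deposited table gave log2 fold changes of 6.64, 5.22, 0.69, 2.12 and 2.93 at day 3 for Ecel1, Sprr1a, Gap43, Sox11 and Gal. In the authors' deposited table Sprr1a has no p-value at day 3 and an adjusted p of 1, although its fold is the second of the 5.

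**Figure D2:**
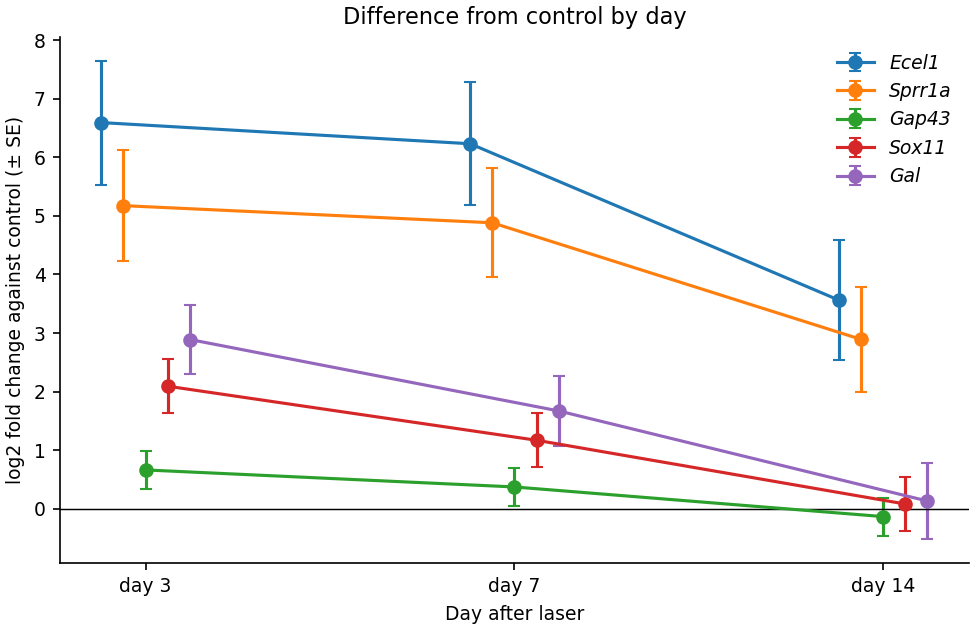
Log2 fold change against control at each day (points, offset sideways so that bars do not cover each other) with the SE of the edgeR fit (bars); lines join the values of 1 gene. Ecel1 goes from 6.59 at day 3 to 3.56 at day 14 and Sprr1a from 5.18 to 2.89, while Gap43, Sox11 and Gal end between -0.13 and 0.13; all 3 days share the same 4 controls.

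Levels of different genes were set side by side on the FPKM scale, which divides by gene length. In control the mean level ran from 14.9 FPKM for Gap43 through 1.19 for Sprr1a, 0.699 for Gal and 0.242 for Sox11 to 0.123 for Ecel1. The libraries of Sprr1a and Gal overlapped in that order, as did those of Gal and Sox11, and the other neighbours did not. At day 3 the order was Sprr1a at 44.2, Gap43 at 24.0, Ecel1 at 12.2, Gal at 5.28 and Sox11 at 1.05 FPKM, and all neighbours overlapped except Gal and Sox11. The lead of Sprr1a at day 3 rested on replicate 3, without which its mean was 18.6 FPKM, below Gap43 at 27.5 FPKM and above Ecel1 at 15.8 FPKM. Day 7 had the order of all day 3 libraries, at 35.9, 19.6, 9.46, 2.26 and 0.551 FPKM. At day 14 Gap43 led again with 13.7 FPKM, ahead of Sprr1a at 9.02, Ecel1 at 1.48, Gal at 0.778 and Sox11 at 0.257.

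Differences between the lasered days were not used to choose the genes, though they rest on the same lasered libraries. The choice favoured genes that were high after the laser, and their differences from control were largest at day 3. A fall after day 3 was thus favoured in advance, and the tests below are not independent of the choice. From day 3 to day 14 all 5 means were lower, and Gal was lower in every day 14 library than in every day 3 library. The log2 difference of day 14 from day 3 was -3.03 ± 0.83 for Ecel1 (SE; edgeR adjusted p = 0.361), -2.28 ± 0.79 for Sprr1a (adjusted p = 0.557) and -0.80 ± 0.33 for Gap43 (adjusted p = 0.679). For Sox11 it was -2.01 ± 0.46 (edgeR adjusted p = 0.215) and for Gal -2.76 ± 0.59 (adjusted p = 0.193). By edgeR 0 of 5 passed, beside 0.00536% of all genes, and 5 of 5 had an unadjusted p under 0.05. Over all genes 1263 of 18657 had an unadjusted p under 0.05 by edgeR. DESeq2 called 3, namely Ecel1 (adjusted p = 0.0168), Sox11 (0.00519) and Gal (0.00198), beside 0.616% of all genes by DESeq2. Without the 3 lasered libraries highest in cornea markers edgeR called 4, with Ecel1 at -3.46, Gap43 at -0.74, Sox11 at -2.29 and Gal at -3.31, but not Sprr1a at -1.07, beside 4.82% of all genes in that fit. Without day 14 replicate 1 alone edgeR called Sox11 (edgeR adjusted p = 0.0351) and Gal (0.0173), beside 6.82% of all genes, and without day 3 replicate 3 alone Sox11 (0.0166), beside 0.0686%.

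Day 7 against day 3 gave smaller differences. Gal was at -1.22 ± 0.53 and Sox11 at -0.92 ± 0.44 on the log2 scale, while Ecel1, Sprr1a and Gap43 were at -0.36 ± 0.76, -0.29 ± 0.75 and -0.29 ± 0.32 (SE). The edgeR adjusted p ran from 0.795 for Gal to 0.962 for Sprr1a, and all 5 ranges overlapped. By edgeR 0 of 5 passed (1 had an unadjusted p under 0.05), by DESeq2 0, beside 0.00% of all genes by edgeR and 0.338% by DESeq2. Of all 18657 genes tested, 1144 had an unadjusted p under 0.05 by edgeR in this contrast. The interval of the Ecel1 difference, -1.84 to 1.12 (95%), leaves room for a change of over 2-fold in either direction. The sign of the Sprr1a difference turned with 1 library, from -0.29 to 0.95 without day 3 replicate 3, and that of Ecel1 from -0.36 to 0.021 without day 7 replicate 1. From day 7 to day 14 the log2 differences ran from -0.51 ± 0.33 for Gap43 to -2.67 ± 0.82 for Ecel1 (SE; edgeR adjusted p = 0.9999 for all 5). Of these, 4 had an unadjusted p under 0.05 and 0 passed by edgeR or by DESeq2, beside 0.00% of all genes. An unadjusted edgeR p under 0.05 was held by 621 of all 18657 genes.

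From library to library Ecel1 lay high or low with Sox11 and with Gal, and Sprr1a lay the other way to Sox11, though no relation passed adjustment. Over the deviations of the 16 wild-type libraries from their group means, Ecel1 and Sox11 had a Pearson r of 0.84 and a Spearman rho of 0.73 (permutation within groups, p = 0.0054 and 0.00639). Ecel1 and Gal had r = 0.78 and rho = 0.64 (permutation p = 0.0023 and 0.00309). Sox11 and Gal had r = 0.58 and rho = 0.35 (permutation p = 0.02655 and 0.2201), and r was 0.25 without the 2 libraries farthest in Sox11. Sprr1a ran against Sox11, with r = -0.71 and rho = -0.59 (permutation p = 0.01642 and 0.0417). Of 30 such relations among the members and 4 marker sums none passed after Benjamini-Hochberg adjustment, with a smallest adjusted p of 0.054 for r and 0.05112 for rho. Without day 3 replicate 3 and day 7 replicate 1, the farthest in Ecel1, r between Ecel1 and Sox11 was 0.67, and that between Ecel1 and Sprr1a went from -0.52 to -0.05.

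The libraries lowest in Ecel1, Gap43, Sox11 and Gal at day 3 and day 7 were the richest in cornea and conjunctiva markers. Day 3 replicate 3 had a marker sum of 33749 CPM, beside 4921 to 13690 in the other day 3 libraries, and day 7 replicate 1 had 26505, beside 5160 to 23851. Day 7 replicate 2, at 23851 CPM of markers, still had Ecel1 at 41.6, Gap43 at 33.2 and Gal at 2.06 CPM. Day 14 did not follow the pattern in full. Its library highest in markers, replicate 1 at 20300 CPM, was lowest in Gap43 (8.16 CPM) but highest in Gal (0.866 CPM). Ecel1 stood at 5.78 CPM there, inside the day 14 range of 2.08 to 10.7 CPM. Of 13 tested markers 3 rose at day 3 by edgeR (Krt13, Krt4 and Krt14) and 0 at day 7, where 10 had an unadjusted p under 0.05. Over all genes 6.97% rose at day 3 and 3.62% at day 7. At day 7, 2868 of 18657 genes were higher with an unadjusted p under 0.05. Over the same within-group deviations the summed markers had r = 0.66 and rho = 0.70 with Sprr1a (permutation p = 0.02171 and 0.00815). With Sox11 they had r = -0.75 and rho = -0.71 (permutation p = 0.00363 and 0.00615). With Gap43, Ecel1 and Gal r was -0.67, -0.63 and -0.55 (permutation p = 0.00815, 0.03969 and 0.05344). None of these relations passed adjustment. Without the 2 libraries farthest in the marker sum r was 0.58 with Sprr1a and -0.63 with Sox11. For Gap43, Ecel1 and Gal it was then -0.58, -0.48 and -0.40. When the fit held covariates for the lens and the cornea markers, the day 3 log2 fold change of Sprr1a was 3.37 instead of 5.18, that of Gap43 1.68 instead of 0.66 and that of Ecel1 8.10 instead of 6.59. The part of corneal tissue in these values was not tested further.

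**Figure D3:**
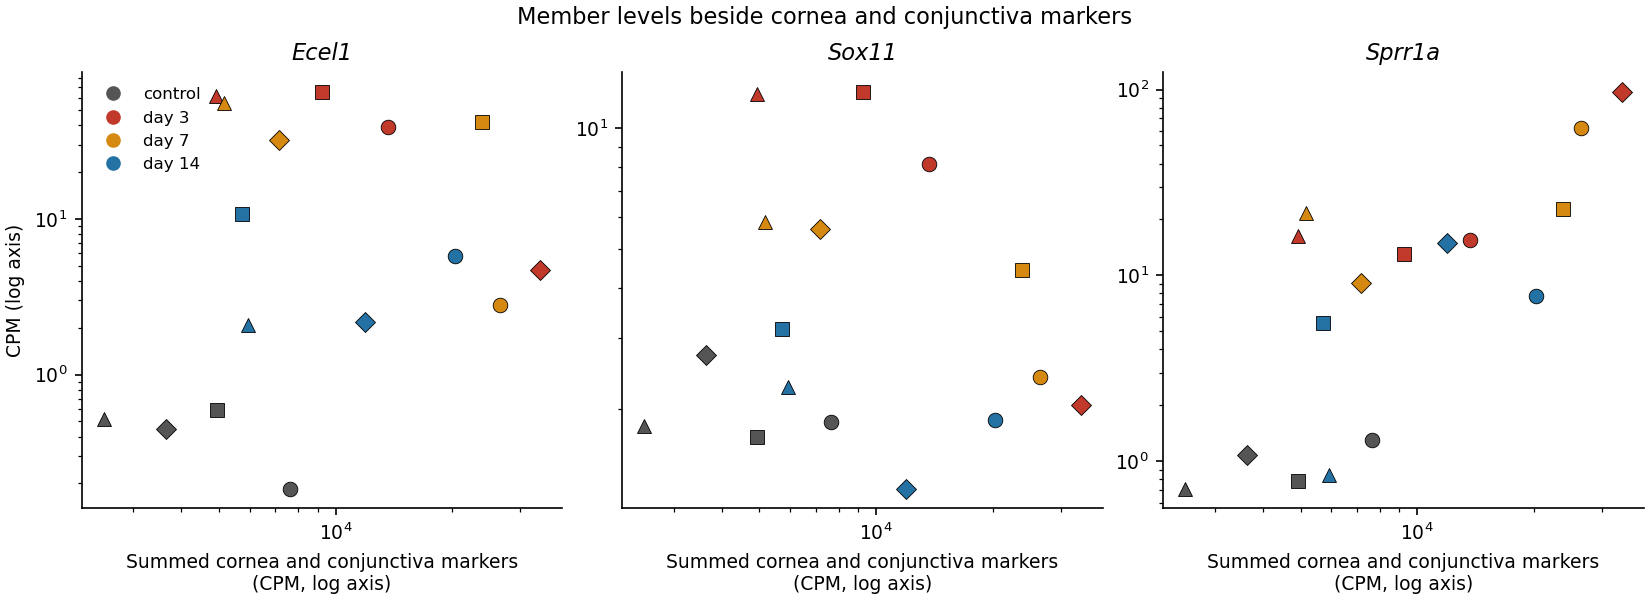
CPM of Ecel1, Sox11 and Sprr1a (log axes) against the summed CPM of 14 cornea and conjunctiva markers (log axis) in the 16 wild-type libraries; colours give the group and shapes the replicate number as in the plot by library. The library at the far right, day 3 replicate 3 at 33749 CPM of markers, has the highest Sprr1a (96.9 CPM) but a Sox11 level (2.05 CPM) within the control range.

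The family around Sprr1a followed the same libraries. The 14 other Sprr genes listed, epithelial proteins from the same cluster family, were all below the filter on low counts. Together they had 0 to 2 counts in each control library. At day 3 their summed count was 42, 2, 357 and 10, at day 7 32, 3, 4 and 1, and at day 14 6, 2, 47 and 1. The peak was again in day 3 replicate 3, but Sprr1a itself kept 13.1 and 16.4 CPM in day 3 replicates 2 and 4, where the other Sprr genes had 2 and 10 counts in all. How reads that match several Sprr genes were counted is not given in the sources used here, so values within the family are uncertain. Of 4 tested cornified envelope genes Ivl, an envelope precursor, rose at day 3 by 3.02 ± 0.95 on the log2 scale (SE, edgeR adjusted p = 0.0469). Cnfn had a log2 fold change of 5.19 ± 1.68 at day 7 (SE, edgeR adjusted p = 0.0584), with overlapping groups.

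Markers of other cells that could carry these genes were set beside them. The 13 ganglion cell markers summed to 652 to 920 CPM in control, 307 to 514 at day 3, 315 to 526 at day 7 and 106 to 794 at day 14. At day 3, 3 of the 13 fell (Pou4f1, Isl2 and Nefh), beside 7.77% of all genes, and 0 rose. The members were thus higher in tissue with a lower ganglion cell sum. A lower sum was not particular to ganglion cells. Rod markers summed to 24809.5 to 39163.9 CPM at day 3, beside 50033.2 to 57369.1 CPM in control. The day 3 sums of amacrine cell, Muller glia and pigment epithelium markers also lay below every control. Lens markers went the other way, at 26775.2 to 51320.7 CPM, beside 174 to 12820.1 CPM in control. Skeletal muscle markers summed to 524 to 1132 CPM at day 3 and 204 to 591 CPM in control, with overlapping ranges. The 8 markers of Schwann cells and peripheral nerve summed to 96.8 to 131 CPM in control and 149 to 209 at day 3, with Egr2 higher and Sox10 lower. The 8 markers of peripheral neurons stayed between 7.94 and 20.1 CPM in all wild-type libraries, with Scn10a at 0 at day 3 and day 7, and Calca alone rose at day 3. Macrophage markers summed to 48.0 to 76.8 CPM in control and 96.0 to 235 at day 3, with 5 of 7 higher. The part of any of these cells in the members' levels was not tested.

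Other genes of the axon injury programme were taken from 9 lists of 122 genes, of which 100 were tested. The lists were chosen with earlier results of these data known. Their counts beside the shares of all genes, here and in the paragraphs on single lists, are therefore a description. At day 3 edgeR called 21 of them higher and 7 lower, beside 14.7% of all genes called, 6.97% higher and 7.77% lower, with a median log2 fold change of 0.09 beside 0.01 over all genes. At day 7 it called 4 higher and 9 lower, beside 10.5% of all genes, 3.62% higher and 6.90% lower. At day 14 it called 0, beside 0.273% of all genes, 0.0322% higher and 0.241% lower, while 30 had an unadjusted p under 0.05. Over all genes 4625 of 18657 had such an unadjusted p at day 14. DESeq2 called 9 at day 14, beside 9.65% of all genes, which is about the background share. Leaving out 1 control library at a time brought the 28 calls of day 3 to between 12 and 16, with 1.54% to 4.55% of all genes called. Leaving out day 3 replicate 1, 3 or 4 brought them to 18, 14 or 17, with 6.46%, 2.45% or 5.35% of all genes called. Without the 3 lasered libraries highest in cornea markers there were 46 calls at day 3 and 34 at day 7, beside 23.4% and 19.1% of all genes.

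**Figure D4:**
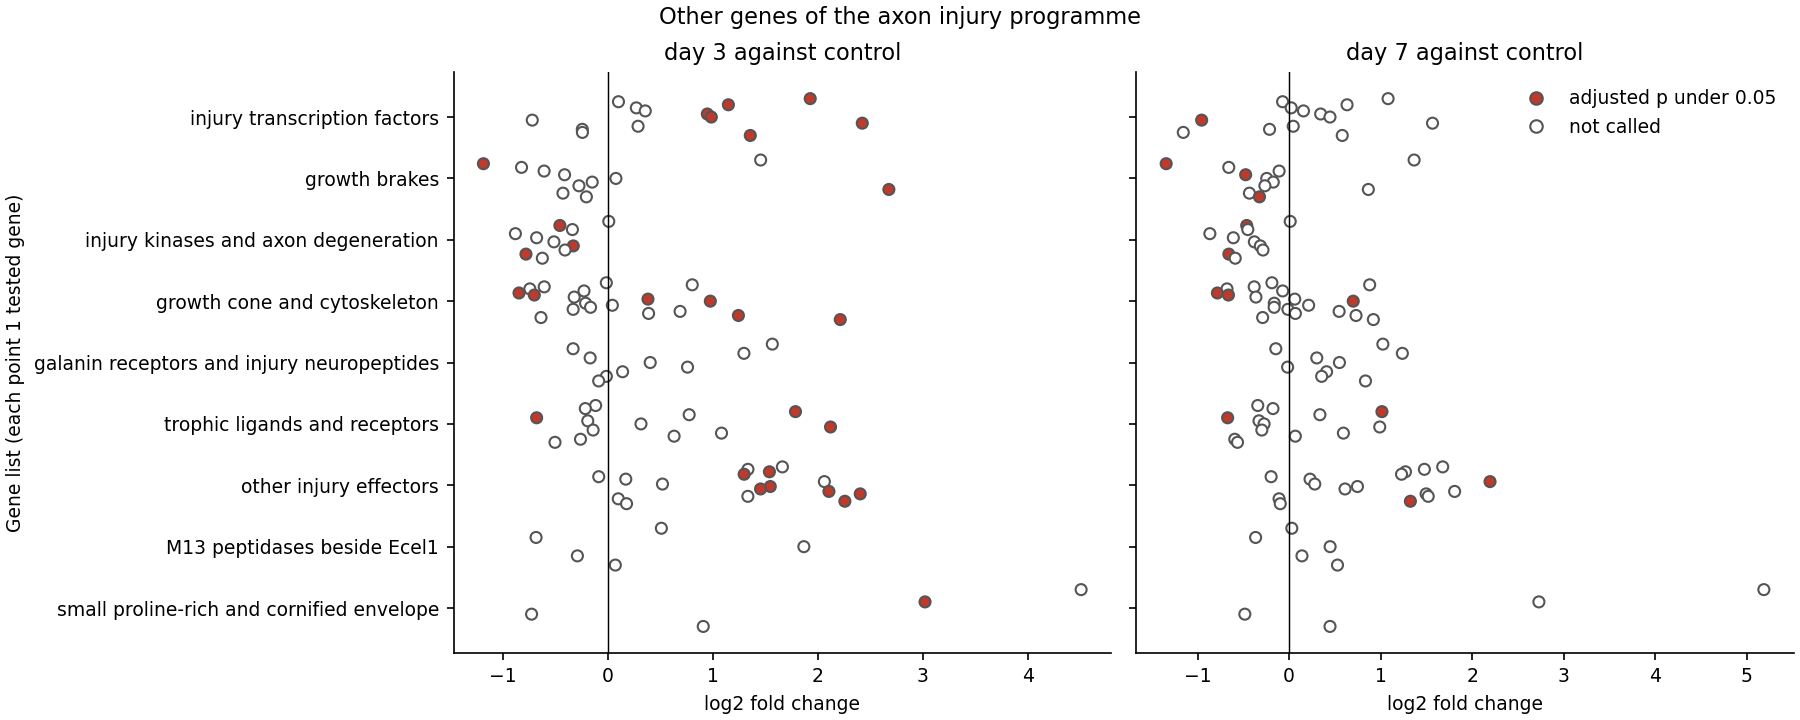
Log2 fold change against control at day 3 (left) and day 7 (right) of the 100 tested genes of 9 lists; each point is 1 gene and filled points had an edgeR adjusted p under 0.05. Filled points at day 3 are mostly to the right among injury transcription factors (6 of 13) and other injury effectors (7 of 16), and to the left among injury kinases (3 of 10).

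Transcription factors of the injury response were higher at day 3, where 6 of 13 rose and 0 fell. Atf3, a stress factor that marks axotomised neurons, went from 7.77 ± 1.31 to 29.6 ± 10.8 CPM (SD, n = 4), a log2 rise of 1.93 ± 0.34 (SE, edgeR adjusted p = 0.00833). Like Ecel1, Gap43, Sox11 and Gal, Atf3 was lowest in replicate 3 at day 3 (15.2 CPM, beside 27.6 to 38.0) and in replicate 1 at day 7 (6.89 CPM, beside 16.2 to 23.0). Stat3, which carries cytokine signals to the nucleus, rose by 1.36 ± 0.20, and Jun, a partner in AP-1, by 0.95 ± 0.18. Myc, Atf5 and Klf6 rose by 2.42, 1.15 and 0.99. At day 7 Klf7, a factor that promotes axon growth, fell by 0.96 ± 0.27 (edgeR adjusted p = 0.0383), and none of the 13 rose.

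Genes that restrain axon growth moved in both directions. At day 3 Socs3, the feedback inhibitor of Stat3 signalling, rose by 2.68 ± 0.46 (SE, edgeR adjusted p = 0.00782) and Klf9 fell by 1.19 ± 0.30 (0.0263), out of 11 tested. Among the genes of this list called at day 7, Klf9 fell by 1.34 and Tsc2 by 0.32. Among 10 kinases and axon degeneration genes 3 fell at day 3, namely Nmnat2, a survival factor of axons, by 0.78, Map2k7, a kinase above Jun kinase, by 0.46 and Mapk8ip3, a transport adaptor, by 0.33. The median of that list was -0.49 beside 0.01 over all genes. At day 7 Nmnat2 and Map2k7 fell again, by 0.66 and 0.46.

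The growth cone list around Gap43 was split. Of 19 genes 4 rose at day 3: the tubulins Tubb6 and Tubb2b by 2.21 and 1.24, and Marcksl1 and Marcks, membrane proteins of the same functional kind as Gap43, by 0.98 and 0.38. The collapsin response proteins Dpysl3 and Dpysl5 fell by 0.85 and 0.70. At day 7 Marcksl1 rose by 0.70 and the same collapsin response genes fell, by 0.78 and 0.66. Around Gal, none of 9 tested neuropeptides and galanin receptors was called on any day. The neuropeptide Adcyap1 had the largest value at day 3, 1.57 ± 0.54 (SE, edgeR adjusted p = 0.0599), and the galanin receptor Galr2 had -0.17 ± 0.32, with Galr1 and Galr3 below the filter. Around Ecel1, none of 5 other peptidases of the M13 family was called, with Mme at 2.66 ± 1.02 at day 14 (SE, edgeR adjusted p = 0.141) and Ece1 at 0.51 ± 0.26 at day 3.

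Among trophic factors Lif rose at day 3 by 2.12 ± 0.37 and Fgf2 by 1.79 ± 0.30 (SE, edgeR adjusted p = 0.00782 and 0.00777), and Gfra1, a receptor subunit for Gdnf, fell by 0.68 ± 0.18. At day 7 Fgf2 was still higher, by 1.01, and Gfra1 still lower, at a log2 fold change of -0.67. The list of other injury effectors had 7 of 16 genes higher at day 3, 0 lower and a median log2 fold change of 1.39. Its called genes were Tnfrsf12a, a receptor that promotes neurite growth, by 2.26, the plasminogen activators Plat and Plau by 1.45 and 2.11, their receptor Plaur by 2.40, Lgals1 by 1.55, Cdkn1a by 1.54 and Chac1 by 1.30. At day 7 Tnfrsf12a rose by 1.32 and the heat shock protein gene Hspb1 by 2.20 (edgeR adjusted p = 0.0493). None of the 100 genes was called between 2 lasered days by edgeR, where 6 to 20 had an unadjusted p under 0.05. Over all genes 621 to 1263 of 18657 had such an unadjusted p in these contrasts. DESeq2 called 1 from day 3 to day 7, beside 0.338% of all genes, 7 from day 3 to day 14, beside 0.616%, and 0 from day 7 to day 14.

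The gene whose levels were most like those of a member was searched among 16657 genes whose mean reached 1 CPM, by the Pearson r of log2 CPM over the 16 wild-type libraries. The r over deviations from the group means follows each value. For Ecel1 it was Gm29374, a lincRNA gene (r = 0.98, 0.92), then Tnnt2 (0.96, 0.89) and Gm37904 (0.95, 0.78). For Sox11 it was Atf3 (0.93, 0.84), then R3hcc1l (0.92, 0.82) and Antxr2 (0.92, 0.91). For Gal it was also Atf3 (0.90, 0.68), then CT025671.4 (0.89, 0.81) and Col5a3 (0.87, 0.62). Gap43 was most like Gm26954 (0.98, 0.98), Zfyve28 (0.97, 0.95) and Cnnm4 (0.97, 0.96). Sprr1a was most like Mrpl24 (0.93, 0.78), Fpgs (0.93, 0.82) and Alg5 (0.93, 0.86). These points share their libraries and groups, so they are a description.

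Gm29374 (chr1:87142874-87146983, minus strand) is the neighbour of Ecel1, on the same strand with 671 bases between the end of Ecel1 and Gm29374. It had 0 counts in all 4 controls. At day 3 it had 70, 130, 17 and 94 counts, at day 7 4, 50, 53 and 115, and at day 14 23, 17, 4 and 2. The lowest library at day 3 and at day 7 was thus the one lowest in Ecel1. Whether these counts belong to a transcript separate from Ecel1 was not tested.

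In the Rag2 strains, all lasered and at day 3, the question was whether the loss of the common gamma chain goes with another level of these genes. The means of all 5 were higher in Rag2-/-γc-/- than in Rag2-/- mice, and no difference passed. Gap43 stood at 37.8, 31.2 and 38.1 CPM in Rag2-/- and at 37.5, 39.9 and 47.1 CPM in Rag2-/-γc-/-, a log2 difference of 0.22 ± 0.11 (SE, edgeR adjusted p = 0.408). Sox11 was at 2.77, 3.72 and 3.18 CPM against 3.95, 3.82 and 4.64 CPM, a difference of 0.36 ± 0.21 (edgeR adjusted p = 0.459). It was the only member without overlap, with 3 of 3 Rag2-/-γc-/- libraries above all Rag2-/- libraries. How many of all genes were without overlap was not counted, so this separation is a description.

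Gal ranged widely within both strains, at 1.58, 0.502 and 4.07 CPM in Rag2-/- and 3.21, 3.21 and 7.05 CPM in Rag2-/-γc-/-. The log2 difference was 1.13 ± 0.74 (SE, edgeR adjusted p = 0.538), with a 95% interval from -0.32 to 2.58. It was 2.09 without Rag2-/- replicate 3, 0.66 without Rag2-/- replicate 2 and 0.64 without Rag2-/-γc-/- replicate 3. Ecel1 was at 0.660, 0.167 and 1.22 CPM against 0.559, 1.12 and 0.779 CPM, a difference of 0.26 ± 0.61 (edgeR adjusted p = 0.877) with a 95% interval from -0.94 to 1.45. Its sign turned when Rag2-/- replicate 2 (-0.20) or Rag2-/-γc-/- replicate 2 (-0.032) was left out. Sprr1a had 2, 2 and 14 counts against 2, 7 and 20 counts and was below the filter. By edgeR 0 of 4 tested members passed and 0 had an unadjusted p under 0.05, beside 0.465% of all genes, and DESeq2 called 0 of them. Of 101 tested genes of the axon injury lists edgeR called 0, with 22 at an unadjusted p under 0.05, and DESeq2 called 11, beside 3.66% of all genes. By edgeR 2778 of all 18923 genes had an unadjusted p under 0.05. Macrophage markers summed to 147 to 191 CPM in Rag2-/- and 173 to 505 CPM in Rag2-/-γc-/- libraries, with 0 of 7 called, and their part was not tested.

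Against the wild-type table, which was normalised separately, the members of the Rag2 libraries differed in where they lay. Gap43 was at 20.4 to 30.9 FPKM in the 6 Rag2 libraries, beside 13.4 to 30.4 in wild-type day 3 and 13.8 to 17.2 in wild-type control. Gal was at 0.702 to 9.88 FPKM, beside 2.16 to 7.97 at wild-type day 3 and 0.171 to 1.19 in control. Sox11 was at 0.334 to 0.557 FPKM, above every wild-type control (0.205 to 0.330) and within the lower part of the wild-type day 3 range (0.249 to 1.48). Ecel1, in contrast, was at 0.0476 to 0.349 FPKM, beside 1.35 to 18.7 at wild-type day 3 and 0.0522 to 0.168 in control, and Sprr1a was at 0.0819 to 0.877 FPKM, beside 16.3 to 121 and 0.867 to 1.59. The cornea and conjunctiva markers were lower in the same libraries, at 12.4 to 21.4 CPM, beside 4921 to 33749 CPM at wild-type day 3 and 2520 to 7626 CPM in control, and their part was not tested. Atf3 in the same Rag2 libraries was at 16.4 to 57.2 CPM, beside 15.2 to 38.0 CPM at wild-type day 3 and 6.63 to 9.53 CPM in control. Gm29374 had 0 counts in 4 of the 6 Rag2 libraries and 6 and 1 in the others. Strain and table cannot be told apart, and no test was made across them.

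**Figure D5:**
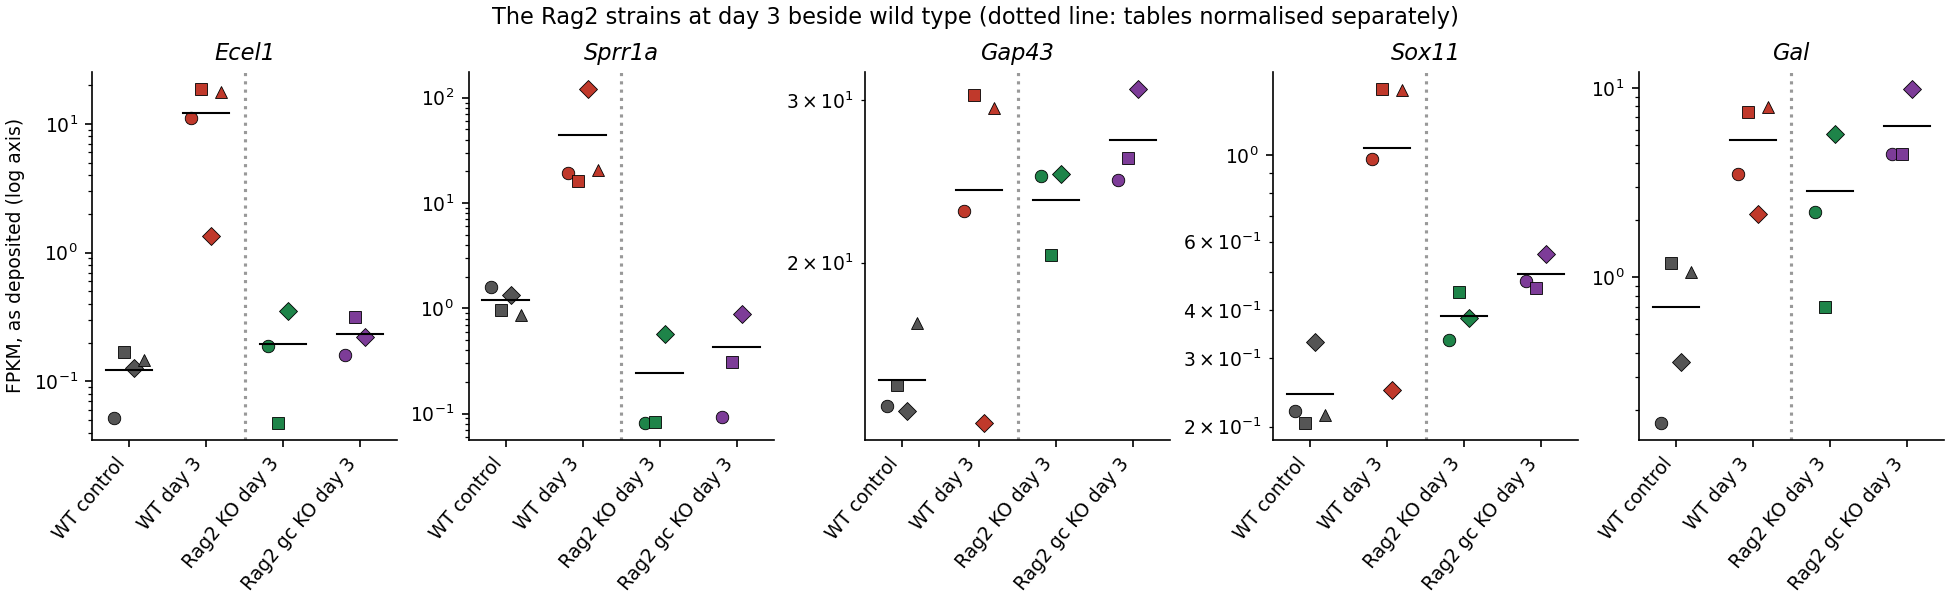
Deposited FPKM of each gene (log axis, a different range in each panel) in wild-type control, wild-type day 3 and the 2 Rag2 strains at day 3; each point is 1 library, shapes give the replicate number, the line is the group mean and the dotted line separates the tables, which were normalised separately. Gal in the Rag2 libraries spans the wild-type day 3 range, Gap43 overlaps its upper end and Sox11 its lower end, while Ecel1 and Sprr1a lie below all wild-type day 3 libraries.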

How the data were processed

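Retina and choroid were sequenced in bulk. RNA was isolated with TRIzol and Novogene did the library work, per the labels' protocols. The authors deposited raw counts per gene and library from featureCounts 1.5.0-p3 on mm10, per the submitters' processing notes; for the aligner, the annotation release and the use of strand, the sources used here give nothing. FPKM values as deposited are the count divided by gene length and a library constant. The authors' log2 fold changes, p-values and group mean signal values against control stand in the deposited wild-type table, with no tool named; the group means were not used.

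Counts were tested with edgeR 4.0.16 in R 4.3.3 (TMM scaling, filterByExpr with min.count 10 and min.total.count 15, robust quasi-likelihood test on group means, Benjamini-Hochberg adjustment over all genes tested, called at an adjusted p under 0.05). All 16 wild-type libraries entered one fit and the 6 Rag2 libraries another. The steps were also run on simulated counts, in which every gene had the same spread and only genes of higher counts were changed. That run cannot show how the steps perform for members with few control counts or a wide spread. The SE of a log2 fold change comes from the test statistic. Depth per library limits genes of few counts, and replicates of a group all differed beyond counting noise. Relations between genes were tested by 100000 two-sided permutations within groups.

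The members and all lists were chosen with earlier results of these data known. The text names the 5 members, of each list up to 4 genes with the smallest p against control and every called gene of lists with 5 or fewer calls (apart from one not reported here), and 3 genes most like each member. Other called genes and marker genes named were chosen after their values were seen. Alternatives were DESeq2 1.42.0, scaling by library totals, no filter, each library left out, a replicate block, a fit of the compared groups only, lens and cornea covariates and, chosen after seeing the data, a fit without the 3 lasered libraries highest in cornea markers.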

Additional observations from a re-analysis of the deposited data

Results flagged for a closer look

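In 3 of the 20 groups of 4 wild-type libraries formed by 5 genes and 4 groups, 1 library stood far from the other 3, with a gap to its nearest neighbour above the 95% critical value of Dixon's test. For independent, normally spread values chance gives such a gap in about 1 of 20 groups. Here the 5 genes share their libraries and CPM was used without a log, so the 3 groups cannot be set against that rate. Sprr1a was at 96.9 CPM in day 3 replicate 3, beside 13.1 to 16.4 CPM in the other day 3 libraries, a gap of 0.961 of the range. Gap43 was at 19.2 CPM in day 7 replicate 1, beside 32.4 to 34.3 CPM in the others, a gap of 0.880. Sox11 was at 2.73 CPM in control replicate 3, beside 1.71 to 1.86 CPM in the others, a gap of 0.854, which rests on 43 counts against 26 to 30. The first and second of these libraries were the highest of their day in cornea and conjunctiva markers.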

How the results depend on the processing

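Under the alternatives other than leaving out 1 library, 202 member values kept their direction and call or moved by less than the spread between libraries, 10 moved by more and 10 became called. The values that changed sign were those of Sprr1a between day 7 and day 3 and, close to 0 in the first place, those at day 14 against control of Gap43 (-0.13, and 0.50 with the covariates and 0.16 without the 3 libraries named below), Gal (0.13, and -0.12 without them) and Sox11 (0.08, and -0.0043 with the replicate block). The members' contrasts with control are descriptions, and no call is given for them. Each count of called list genes is followed by the share of all genes called in the same fit. The number of called list genes was 28 at day 3 (14.7%), and came to 18 without a filter (4.01%), 57 when only the groups compared were fitted (40.4%), 11 with the lens and cornea covariates (2.65%) and 46 without the 3 lasered libraries highest in cornea markers (23.4%). At day 7 it was 13 (10.5%), and 27 with DESeq2 (20.2%), 7 with scaling by library totals (7.66%), 4 without a filter (2.14%), 40 with only the compared groups (25.3%) and 34 without those 3 libraries (19.1%). At day 14 it was 0 (0.273%), and 9 with DESeq2 (9.65%), 2 with the covariates (0.563%) and 8 without the 3 libraries (3.90%). From day 3 to day 7 it was 0 (0.00%), and 1 with DESeq2 (0.338%) and 4 without the 3 libraries (0.187%). From day 3 to day 14 it was 0 (0.00536%), and 7 with DESeq2 (0.616%), 1 with library totals (0.0214%), 4 with the covariates (0.541%) and 25 without the 3 libraries (4.82%). Between the Rag2 strains it was 0 (0.465%), and 11 with DESeq2 (3.66%) and 6 without a filter (1.56%). Except that fewer genes or libraries enter some of these fits, the cause was not tested. The covariates moved the log2 fold change against control of Ecel1 to 8.10 at day 3 and 4.96 at day 14, of Sprr1a to 3.37 and 3.47 at day 3 and day 7, of Gap43 to 1.68, 1.05 and 0.50 at day 3, day 7 and day 14, and of Sox11 to 1.95 and 0.71 at day 7 and day 14. Without the 3 libraries that of Sprr1a at day 3 was 3.96. For day 14 against day 3, DESeq2 called Ecel1 at -3.04, Sox11 at -2.02 and Gal at -2.78, the covariate fit Gap43 at -1.18, Sox11 at -2.11 and Gal at -2.87, and the fit without the 3 libraries Ecel1 at -3.46, Gap43 at -0.74, Sox11 at -2.29 and Gal at -3.31. The Sprr1a difference between day 7 and day 3, -0.29, was 0.10 with the covariates and 0.25 without the 3 libraries.

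The replicate block, with the number as a term, gave 0.16 for Sprr1a from day 3 to day 7 and changed no call of a member and no other direction between days. Same-numbered libraries had correlations of their deviations from -0.51 to 0.48 in wild type and from -0.06 to 0.08 in the Rag2 set. Differently numbered libraries were not set beside them, so these values cannot decide whether the numbers pair the samples.

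Leaving out each library in turn gave 12 to 29 called list genes at day 3, with 1.54% to 12.7% of all genes called. At day 7 it gave 1 to 18, with 0.675% to 15.4% of all genes. The day 7 count was 3, 2, 1 and 2 without control replicates 1 to 4, and 3 and 1 without day 7 replicates 1 and 2. From day 3 to day 14 it gave 0 to 23, with 0.00% to 6.82% of all genes. The highest count and the highest share there both came without day 14 replicate 1. Between the Rag2 strains it gave 0 to 1, with 0.129% to 0.596% of all genes. The log2 fold change of Sprr1a at day 3 ran from 3.93 to 5.45, and from day 3 to day 7 from -0.99 to 0.95. That of Ecel1 from day 3 to day 7 ran from -0.74 to 0.021 and between the Rag2 strains from -0.20 to 0.96, where Gal ran from 0.64 to 2.09. From day 3 to day 14 Sox11 ran from -2.34 to -1.80 and Gal from -3.04 to -2.49. Low counts limit Gal and Ecel1 in control and Sprr1a in the Rag2 libraries, where without a filter its difference was 0.79 ± 0.83 (SE, edgeR adjusted p = 0.731).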
